A study of Mus musculus with 27 samples.

Results

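The proteasome subunit genes of the mouse were described along 9 days of osteoblast differentiation in culture. Members were the protein-coding genes whose symbol is Psma, Psmb, Psmc, Psmd, Psme, Psmf or Psmg followed by digits, pseudogenes left out, and 48 of the 37991 genes in the files met this rule. They comprised 7 genes of the 20S alpha ring, 7 constitutive genes of the 20S beta ring, 3 immune catalytic genes, 6 ATPase and 11 other genes of the 19S regulatory particle, 7 assembly chaperones, 5 activators or inhibitors and 2 tissue-restricted genes. Cells came from the skull vaults (calvariae) of neonatal C57BL/6J-Col3.6 CFP mice aged 5 to 9 days, which carry cyan fluorescent protein under the Col3.6 fragment of a type I collagen promoter, a fragment also active before osteoblasts mature. After 4 days in culture, fluorescent cells were sorted and grown in medium with ascorbic acid and β-glycerol phosphate, and RNA was taken on days 2, 4, 6, 8, 10, 12, 14, 16 and 18, the only variable between the groups. The 27 expression profiles are 3 per day. The paper describes triplicate samples, but the profiles of a day carried 1 barcode in 3 sequencing lanes and were summed, which left 1 library per day and no replicate at any day. The sources used here do not say how many mice were pooled for a day.

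The proteasome is the large protease that degrades proteins tagged with ubiquitin. Its 20S core is a barrel of alpha rings, which gate the entrance, and beta rings, of which Psmb5, Psmb6 and Psmb7 carry the active sites. The 19S regulatory particle caps the barrel, and its ATPases (Psmc genes) unfold substrates. Among its other subunits, encoded by most Psmd genes, some bind or trim ubiquitin. Interferon is known to induce Psmb8, Psmb9 and Psmb10, which take the places of Psmb5, Psmb6 and Psmb7 in newly built immunoproteasomes and favour peptides that fit class I molecules of antigen presentation. Interferon is also known to induce Psme1 and Psme2, which form an alternative cap. The transcription factor Nfe2l1 raises constitutive subunit genes together when proteasome activity is low. In osteoblasts, proteasomes are known to degrade Runx2 and other regulators of differentiation.

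Upstream sequence of genes on both sides of the comparison is shown because members with different courses are known targets of different regulators. The RefSeq table of GRCm38.p6 held promoter windows for 40 of the 48 members, and 8 had none. The 250 bases before each annotated start were searched on both strands for 4 motifs. The lines give the 150 bases before the RefSeq start, 5′ to 3′ along the gene, with any match in capitals. These starts were not matched to those of NCBIM37, the build to which reads were aligned. The distance between the Psmb8 and Psmb9 starts differs between these sources, so the bases shown for them may lie inside a gene as counted.
Psmb5 (chr14:54617996-54618145, minus strand): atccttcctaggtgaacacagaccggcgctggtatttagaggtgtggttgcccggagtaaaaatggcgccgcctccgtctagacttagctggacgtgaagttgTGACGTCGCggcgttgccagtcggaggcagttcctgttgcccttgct
Psmb8 (chr17:34198045-34198194, plus strand): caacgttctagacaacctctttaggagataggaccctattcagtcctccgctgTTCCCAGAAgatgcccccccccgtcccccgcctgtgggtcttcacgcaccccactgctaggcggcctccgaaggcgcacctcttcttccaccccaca
Psmb9 (chr17:34187331-34187480, minus strand): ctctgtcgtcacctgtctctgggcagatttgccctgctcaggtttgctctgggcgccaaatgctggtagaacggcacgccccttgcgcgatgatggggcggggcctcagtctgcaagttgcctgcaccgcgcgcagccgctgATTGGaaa
Psmb10 (chr8:105938393-105938542, minus strand): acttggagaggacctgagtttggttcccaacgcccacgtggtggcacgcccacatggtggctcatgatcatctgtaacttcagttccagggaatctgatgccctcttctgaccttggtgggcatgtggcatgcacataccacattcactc
Psme1 (chr14:55578344-55578493, plus strand): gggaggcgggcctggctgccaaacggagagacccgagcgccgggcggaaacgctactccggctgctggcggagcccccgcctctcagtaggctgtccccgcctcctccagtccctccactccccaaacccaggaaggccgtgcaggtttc
The capitals mark TGACNNNGC, the core of the antioxidant response element, for Psmb5, and TTCNNNGAA, the gamma-activated site of interferon signalling, for Psmb8. For Psmb9 they mark a CCAAT box read on the opposite strand. None of the 4 motifs occurs in the lines for Psmb10 and Psme1. The antioxidant response element core was in 5 of 43 member windows (11.6%) and in 10.2% of all 32851 windows, and the members with it were Psmb5, Psmb6, Psmc6, Psmd9 and Psmd12. The interferon-stimulated response element core GAAANNGAA was in 3 member windows (6.98%) and in 7.13% of all. The members with it were Psmb3, Psmd4 and Psmd9, and none of the 3 immune windows held it. The gamma-activated site was in 2 member windows (4.65%), those of Psmb8 and Psmg1, and in 7.02% of all. The CCAAT box was in 14 member windows (32.6%) and in 33.8% of all. A match describes letters in the window and not a bound site. No motif overlapped another in the lines shown.

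A day held between 22470195 (day 10) and 62009157 (day 12) estimated counts, with a median of 43146793. Gene levels are given as TPM, a share of all transcripts in which RSEM divides the reads of a gene by its length, which allows levels to be compared between genes. Each profile was scaled by its upper quartile, and a level is the mean of the 3 lanes of a day. The SD over lanes covers sequencing and quantification only. Of 8 osteoblast markers, 5 rose along the days, among them Bglap from at most 1.24 TPM on days 2 to 6 to at least 31.4 TPM on days 14 to 18, and the markers together had 2018 TPM on day 2 and 5179 TPM on day 18, of which Col1a1 alone had 1526 and 4263 TPM. Sp7, Alpl and Spp1 did not pass the straight line described next. Sp7 had 32.3 TPM on day 2, 2.77 TPM on day 8 and 10.6 TPM at the end (change -1.23, SE 0.83), and Spp1 had 402, 583 and 532 TPM with its highest value of 1013 TPM on day 6 (change -1.17, SE 0.54). In these bulk samples, fewer cells of a type and less RNA per cell cannot be told apart.

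Most proteasome genes were lower late in differentiation. A straight line in day was fitted to the summed counts of all genes, and the change is the fitted log2 difference from day 2 to day 18. Of the 47 members tested, 37 fell, 2 rose and 8 did not pass (edgeR quasi-likelihood test, Benjamini-Hochberg adjusted p under 0.05 over 15658 genes). Over all genes tested, 26.1% fell and 28.3% rose. The median change was -0.81 over the members and 0.05 over all genes. The remaining member, Psmb11, had too few counts to be tested. Without a test, levels on days 14, 16 and 18 lay below all levels on days 2, 4 and 6 in 37 of the 47 members, against 25.6% of all genes tested, and above them in 2, against 32.4%. A natural spline in day, which can follow a rise and a later fall, passed in 43 members, against 57.5% of the 16255 genes it tested. Leaving out any day or lane, or changing the scaling, kept between 37 and 38 falls. The count of 2 rises was less stable and ranged from 0 to 4, with 0 rises without day 2, without day 4 and with scaling to total counts.

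**Figure D1:**
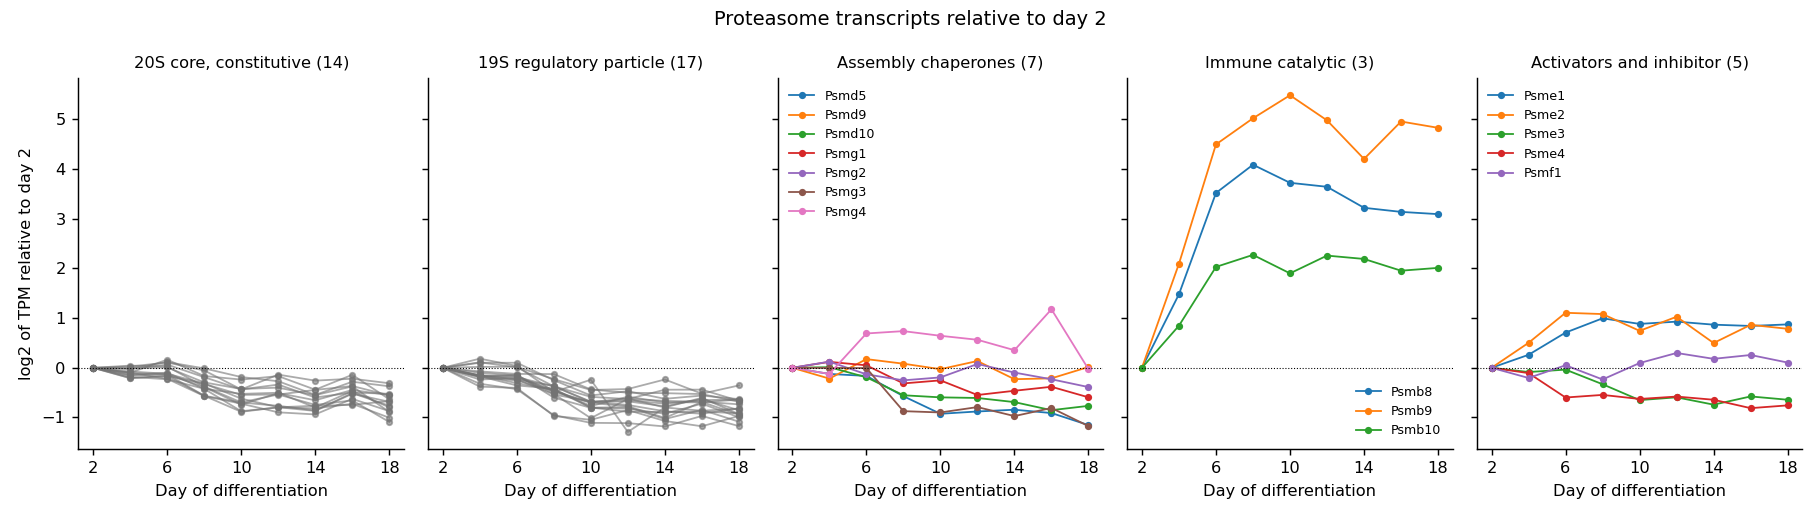
Levels of 46 proteasome genes relative to day 2 (log2 of the TPM ratio) against day of differentiation, in 5 panels by role, with 1 line per gene. The constitutive 20S and 19S lines lie below 0 from day 8 on, while Psmb8, Psmb9 and Psmb10 lie above 0 from day 4 on.

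All 14 constitutive 20S core genes fell. In the alpha ring, changes ranged from -1.10 for Psma7 to -0.47 for Psma4, with a median of -0.80. Psma7 was the most abundant alpha gene, at 246, 222, 229.5, 183, 134, 141, 139.5, 149 and 122 TPM on days 2 to 18 (change -1.10, SE 0.15, edgeR adjusted p = 0.000187). Psma2 was the least abundant, at 44.8 TPM on day 2, 26.8 TPM on day 10 and 30.6 TPM on day 18 (change -0.66, SE 0.15, edgeR adjusted p = 0.00393). In both genes every late day lay below every early day. Among the beta subunits without an active site, Psmb2 was the highest and had 204 TPM on day 2 and 139 TPM on day 18 (change -0.57, SE 0.13, edgeR adjusted p = 0.00341). Psmb3 was the lowest and went from 85.2 to 50.2 TPM (change -0.86, SE 0.18, edgeR adjusted p = 0.00266). Psma3, Psma4 and Psma5 had fractional counts in 17 to 26 of the 27 profiles, since RSEM divided reads that also match other transcripts, and their values are less certain. Together the 14 core genes had 2096 TPM on day 2 and 1269 TPM on day 18, a ratio of 0.606, and the ratio of the late to the early mean had a median of 0.674 (range 0.558 to 0.808).

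The constitutive catalytic genes fell as well. Psmb5, which carries the chymotrypsin-like site, stood at 207, 179, 184, 139.8, 112, 119, 122, 123 and 129.9 TPM on days 2 to 18 (change -0.85, SE 0.18, edgeR adjusted p = 0.00261). Psmb6, with the caspase-like site, stood at 139, 137, 145, 122, 103, 109.8, 91.7, 98.3 and 96.6 TPM (change -0.75, SE 0.12, edgeR adjusted p = 0.000478). Psmb7, with the trypsin-like site, stood at 163, 152, 139.5, 109.6, 98.5, 87.3, 84.8, 105 and 88.8 TPM (change -0.99, SE 0.17, edgeR adjusted p = 0.000864). In these 3 genes the early and late days did not overlap, and the step down lay between days 6 and 10. The largest SD over lanes was 8.84 TPM for Psmb5, 12.1 TPM for Psmb6 and 9.22 TPM for Psmb7, a technical spread only.

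All 17 genes of the 19S particle fell. Changes of the 6 ATPase genes ranged from -1.08 for Psmc1 to -0.79 for Psmc2, with a median of -0.96. Psmc5 was the most abundant ATPase gene, at 151 TPM on day 2, 162 TPM on days 4 and 6 and 97.5 TPM on day 18 (change -0.92, SE 0.13, edgeR adjusted p = 0.000290). Psmc6 was the least abundant, at 57.6 TPM on day 2 and 29.9 TPM on day 18 (change -1.03, SE 0.15, edgeR adjusted p = 0.000265). The 11 other genes had a median change of -0.95. Psmd1, a large scaffold subunit of the particle's base, was the highest of them and showed the smallest change, with 169.9 TPM at the start and 133 TPM at the end (change -0.60, SE 0.13, edgeR adjusted p = 0.00264), with fractional counts in 26 profiles. Psmd3, a scaffold subunit of the lid, was the lowest, from 22.5 to 14.2 TPM (change -0.66, SE 0.14, edgeR adjusted p = 0.00311). Psmd8, another lid subunit, showed the largest change of the 31 constitutive genes, from 91.7, 73.4 and 68.1 TPM on the early days to 40.4, 46.8 and 40.7 TPM on the late days (change -1.21, SE 0.20, edgeR adjusted p = 0.000703). Among the 31 constitutive genes of the core and the 19S particle, Psmd14, the deubiquitinase of the lid, had the lowest ratio of the late to the early mean level, 0.547. The core gene Psma4 had the highest of these, 0.808. Together the 17 genes had 1705 TPM on day 2 and 994 TPM on day 18, a ratio of 0.583, and the late to early ratio had a median of 0.604 (range 0.547 to 0.769). Psmd13, another lid subunit, had the widest spread between lanes among the 19S genes relative to its level, with an SD of 17.5 TPM at a mean of 45.3 TPM on day 2 and of 52.3% of the mean on day 14, so its course over single days (lowest at 18.5 TPM on day 12) is imprecise, although its fall passed the line on summed counts (change -1.12, SE 0.19, edgeR adjusted p = 0.000687).

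**Figure D2:**
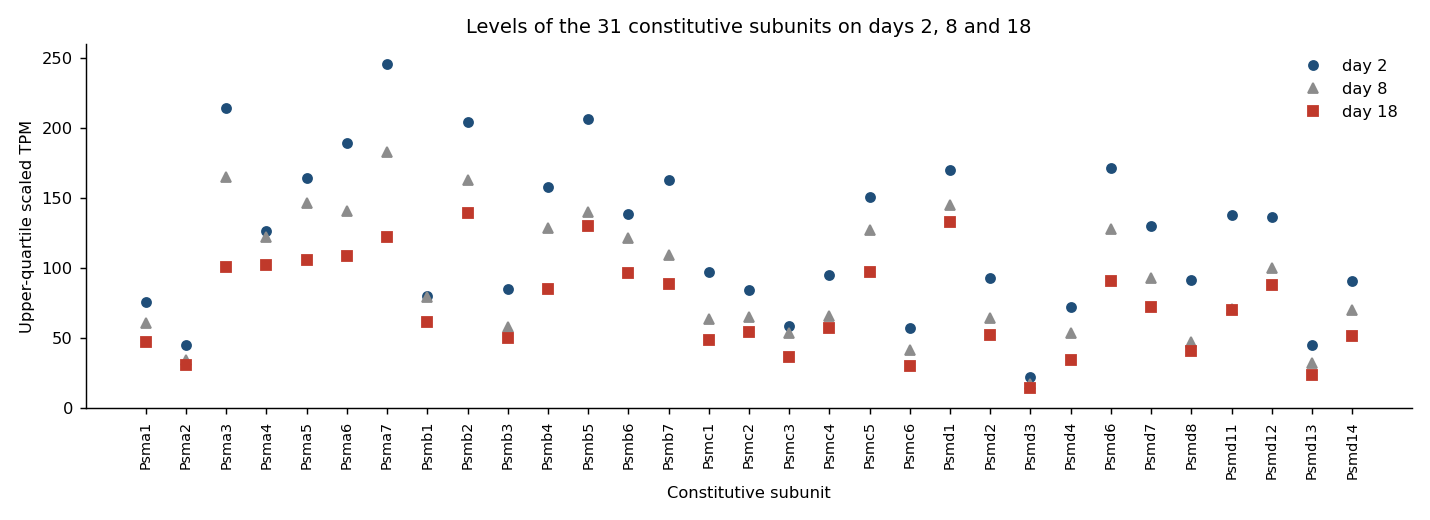
Level in TPM (linear axis from 0) of each of the 31 constitutive genes on day 2 (circles), day 8 (triangles) and day 18 (squares). The day 18 value lies below the day 2 value in each gene, and levels range from 14.2 TPM (Psmd3, day 18) to 246 TPM (Psma7, day 2).

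The summed level of the 31 constitutive genes was lower from day 8 on than before. It was 3801, 3540 and 3527 TPM on days 2, 4 and 6, and 2891, 2438, 2505, 2344, 2521 and 2263 TPM on days 8, 10, 12, 14, 16 and 18. The later days varied around a lower level. From day 6 to day 8, 31 of 31 genes were lower, by a median ratio of 0.812, against 54.1% of all genes tested with a median ratio of 0.973. From day 8 to day 10, 30 were lower, by a median ratio of 0.843, against 53.2% of all genes with a median ratio of 0.976. Other steps were more divided, with 18 of 31 lower from day 4 to day 6 and 12 from day 10 to day 12, while 25 were lower from day 2 to day 4, 26 from day 12 to day 14, 7 from day 14 to day 16 and 24 from day 16 to day 18. Each step compares 1 library with 1 other, so that a common shift of a library and a change in the cells cannot be told apart. Day 2 was the highest for 21 genes, day 4 for 3 and day 6 for 7, and the lowest level came on day 10 or later in all 31. Across the 9 days, the median Pearson r between pairs of constitutive genes was 0.904 (465 pairs, range 0.506 to 0.997), against 0.037 between pairs of the 14869 genes tested that were above 0 on each day, and the points of a pair share their libraries. Transcripts of subunits that are present in equal number in the particle were not equal in level. The highest of the 14 core genes was 5.49 times the lowest on day 2 and 4.55 times on day 18. For the ATPase genes these ratios were 2.62 and 3.27, and for the other 19S genes 7.60 and 9.34.

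The 3 immune catalytic genes followed another course. Psmb8 and Psmb9 lie on chromosome 17 in the class II region of the major histocompatibility complex. In the NCBIM37 annotation, Psmb9 (ENSMUSG00000024337) spans 34318932 to 34324697 on the minus strand and Psmb8 (ENSMUSG00000024338) spans 34334666 to 34338399 on the plus strand. Tap1, a peptide transporter gene on the plus strand, starts 199 bp inside the start of Psmb9 and 10168 bp before that of Psmb8. Psmb10 (ENSMUSG00000031897) spans 108459628 to 108462292 on the minus strand of chromosome 8. The sources used here do not say that reads were counted by strand, so that reads where Psmb9 and Tap1 overlap may not be told apart.

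Psmb8 stood at 1.47, 4.10, 16.9, 25.01, 19.4, 18.4, 13.7, 12.9 and 12.6 TPM on days 2 to 18. Its highest day was day 8, at 17.02 times day 2, and day 18 was at 0.502 of that maximum. Psmb9 stood at 1.12, 4.78, 25.2, 36.4, 50.1, 35.3, 20.6, 34.8 and 31.8 TPM, with the highest value on day 10, at 44.8 times day 2. Psmb10 stood at 4.58, 8.24, 18.7, 22.1, 17.1, 21.9, 20.9, 17.8 and 18.5 TPM, with the highest value on day 8, at 4.83 times day 2. Day 2 was the lowest day of each gene and had 49 counts for Psmb8, 12 for Psmb9 and 132 for Psmb10, so that ratios to day 2 are imprecise. Every late day lay above days 2 and 4 in the 3 genes, but the early and late days overlapped, since day 6 already stood at 16.9, 25.2 and 18.7 TPM. The straight line did not pass for Psmb8 (change 1.21, SE 1.16, edgeR adjusted p = 0.403), Psmb9 (change 2.95, SE 1.38, edgeR adjusted p = 0.0950) or Psmb10 (change 1.24, SE 0.57, edgeR adjusted p = 0.0885). The spline passed for all 3, with edgeR adjusted p of 1.12e-06, 3.09e-07 and 4.34e-05. Without day 2 the line for Psmb8 had a change of -0.00834. Among the 3 genes the median Pearson r over the 9 days was 0.973, and with the constitutive genes it was -0.70, as a description without a test.

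**Figure D3:**
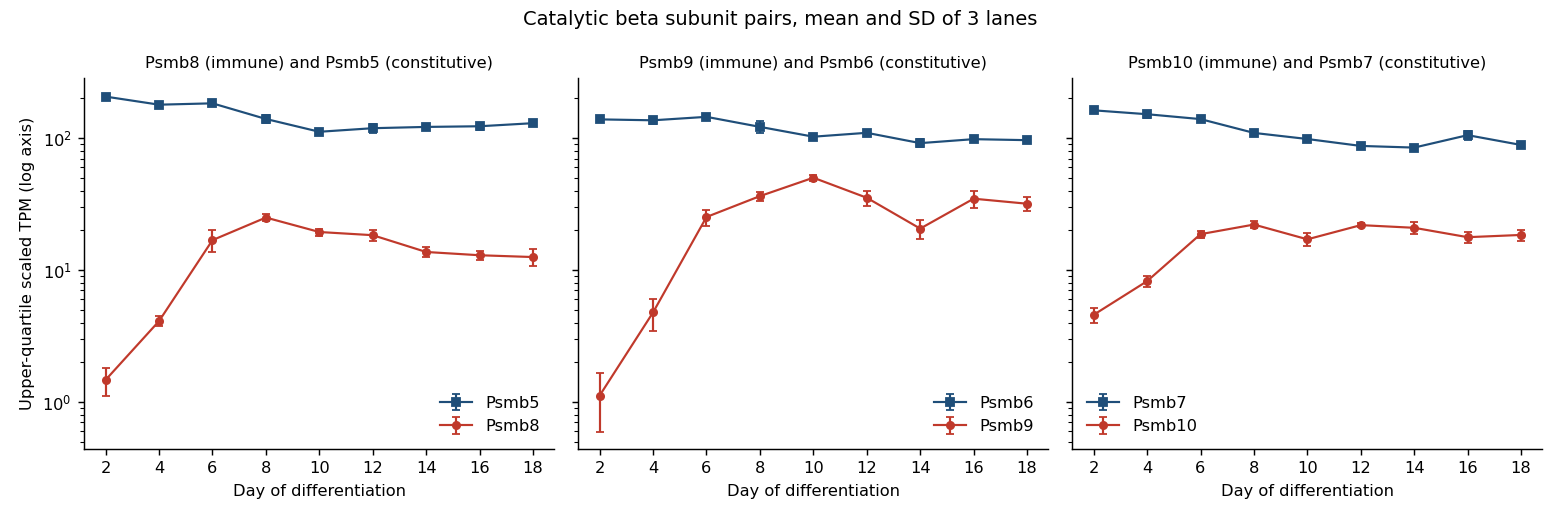
Level in TPM (log axis) of each immune catalytic gene (circles) and the constitutive gene whose place its product takes (squares) against day of differentiation, as mean and SD of 3 lanes. The constitutive gene lies above its immune partner on each of the 9 days in all 3 panels, and the gap narrows from day 2 to day 8.

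The comparison of immune with constitutive genes was made within each library, where scaling has no part. Psmb8 made up 0.705% of the TPM of Psmb8 and Psmb5 together on day 2 (SD over 3 lanes 0.16), 15.2% on day 8 (SD 1.56) and 8.81% on day 18 (SD 1.28). Psmb9 made up 0.797% of its pair with Psmb6 on day 2 (SD 0.36), 32.8% on day 10 (SD 1.17) and 24.8% on day 18 (SD 2.43). Psmb10 made up 2.74% of its pair with Psmb7 on day 2 (SD 0.41), 20.1% on day 12 (SD 1.31) and 17.2% on day 18 (SD 1.31). Constitutive transcripts stayed the larger part in every pair on every day. The log2 ratio of the summed counts was correlated with day by exact permutation over the 9 days (two-sided, adjusted over the 3 ratios). For Psmb9 to Psmb6, Pearson r was 0.787 (n = 9, exact permutation p = 0.00254, adjusted 0.00762) and Spearman rho 0.700 (exact permutation p = 0.0433, adjusted 0.0649). For Psmb10 to Psmb7, r was 0.782 (n = 9, exact permutation p = 0.00600, adjusted 0.00900) and rho 0.717 (exact permutation p = 0.0369, adjusted 0.0649). For Psmb8 to Psmb5, r was 0.648 (n = 9, exact permutation p = 0.0540, adjusted 0.0540) and rho 0.433 (exact permutation p = 0.250, adjusted 0.250). Without days 2 and 18, r was 0.744, 0.711 and 0.527 in the same order (exact permutation p adjusted over the 3 ratios, 0.0851, 0.0851 and 0.231). None passed over these 7 days, at an r close to that over 9 days for the first 2 ratios. Leaving out day 2 alone also ended the calls of Psmb9 to Psmb6 (r = 0.710) and Psmb10 to Psmb7 (r = 0.679), both at an exact permutation p adjusted to 0.0642. Psmb8 to Psmb5 passed without day 8 (r = 0.733, exact permutation p adjusted to 0.0284), without day 18 (r = 0.720, adjusted 0.0384) and without replicate 2 (r = 0.655, adjusted 0.0494). The 3 immune genes together made up 1.39, 3.53, 11.5, 18.4, 21.7, 19.3, 15.6, 16.7 and 16.6% of the TPM of the 6 catalytic genes on days 2 to 18.

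The activators divided. Psme1 (ENSMUSG00000022216, chromosome 14, 56196960 to 56200366, plus strand, NCBIM37), an interferon-inducible cap subunit, stood at 133, 159, 217, 265, 245, 253, 243, 238 and 243.5 TPM on days 2 to 18. It was the most abundant member by mean level, and its late days lay above all early days (change 0.77, SE 0.24, edgeR adjusted p = 0.0188). The rise did not pass without day 2 (change 0.49, edgeR adjusted p = 0.111), without day 4 (0.66, 0.0640) or with total counts (0.64, 0.0598). Psme2, its partner in the cap, whose gene starts 12990 bp away, stood at 60.2, 85.3, 129.8, 127, 101, 123, 85.1, 109.7 and 104 TPM. Its early and late days overlapped, the line did not pass (change 0.11, SE 0.33, edgeR adjusted p = 0.805) and the spline did (edgeR adjusted p = 0.00157). Counts of Psme2 were fractional in 27 of 27 profiles, so that its value is uncertain. Psme3, whose product forms a nuclear cap, fell from 131 to 83.7 TPM (change -0.69, SE 0.12, edgeR adjusted p = 0.000767). Psme4, whose product is a large single-chain activator, fell from 66.0 to 39.1 TPM (change -0.82, SE 0.11, edgeR adjusted p = 0.000257). Psmf1, known as a proteasome inhibitor, rose, with early days at 22.4 to 26.7 TPM and late days at 27.7 to 30.8 TPM (change 0.46, SE 0.15, edgeR adjusted p = 0.0288). The call for Psmf1 was lost under 9 of the alternatives, with changes of 0.33 to 0.51 and edgeR adjusted p up to 0.0853.

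Of the 7 assembly chaperones, whose products help build the core or the base of the 19S particle and then leave, 4 fell. Psmg3, a core chaperone, had the largest fall of all members, with levels of 12.3, 12.2 and 12.2 TPM on days 2, 4 and 6, 6.69 TPM on day 8 and 5.43 TPM on day 18 (change -1.31, SE 0.27, edgeR adjusted p = 0.00202). Its level on days 8 to 18 never exceeded 7.08 TPM. Psmd5, a base chaperone, fell from 73.0 to 32.8 TPM (change -1.19, SE 0.16, edgeR adjusted p = 0.000213). Psmd10, another base chaperone, fell from 42.8 to 25.2 TPM (change -0.996, SE 0.14, edgeR adjusted p = 0.000212). Psmg1 fell from 31.2 to 20.7 TPM (change -0.76, SE 0.16, edgeR adjusted p = 0.00251). Psmd9, a base chaperone, stayed between 7.12 and 9.42 TPM (change -0.19, SE 0.18, edgeR adjusted p = 0.399). Psmg2, which pairs with Psmg1, lay between 12.2 and 17.4 TPM (change -0.39, SE 0.17, edgeR adjusted p = 0.0713). It passed with 4 of the alternatives, among them TMM scaling (change -0.43, edgeR adjusted p = 0.0444). Psmg4, which pairs with Psmg3, rested on 29 to 86 counts a day at 4.89 to 12.1 TPM (change 0.35, SE 0.48, edgeR adjusted p = 0.571).

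The tissue-restricted genes were near the limit of detection. Psma8, the alpha subunit of the testis proteasome, had 7 to 42 counts a day at 0.326 to 1.06 TPM (change -0.07, SE 0.76, edgeR adjusted p = 0.941). Psmb11, the catalytic subunit of the thymic cortex, had at most 5 counts on any day and at most 0.0502 TPM. Its late days lay above its early days, which at counts of 1 to 5 is not a measured difference.

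**Figure D4:**
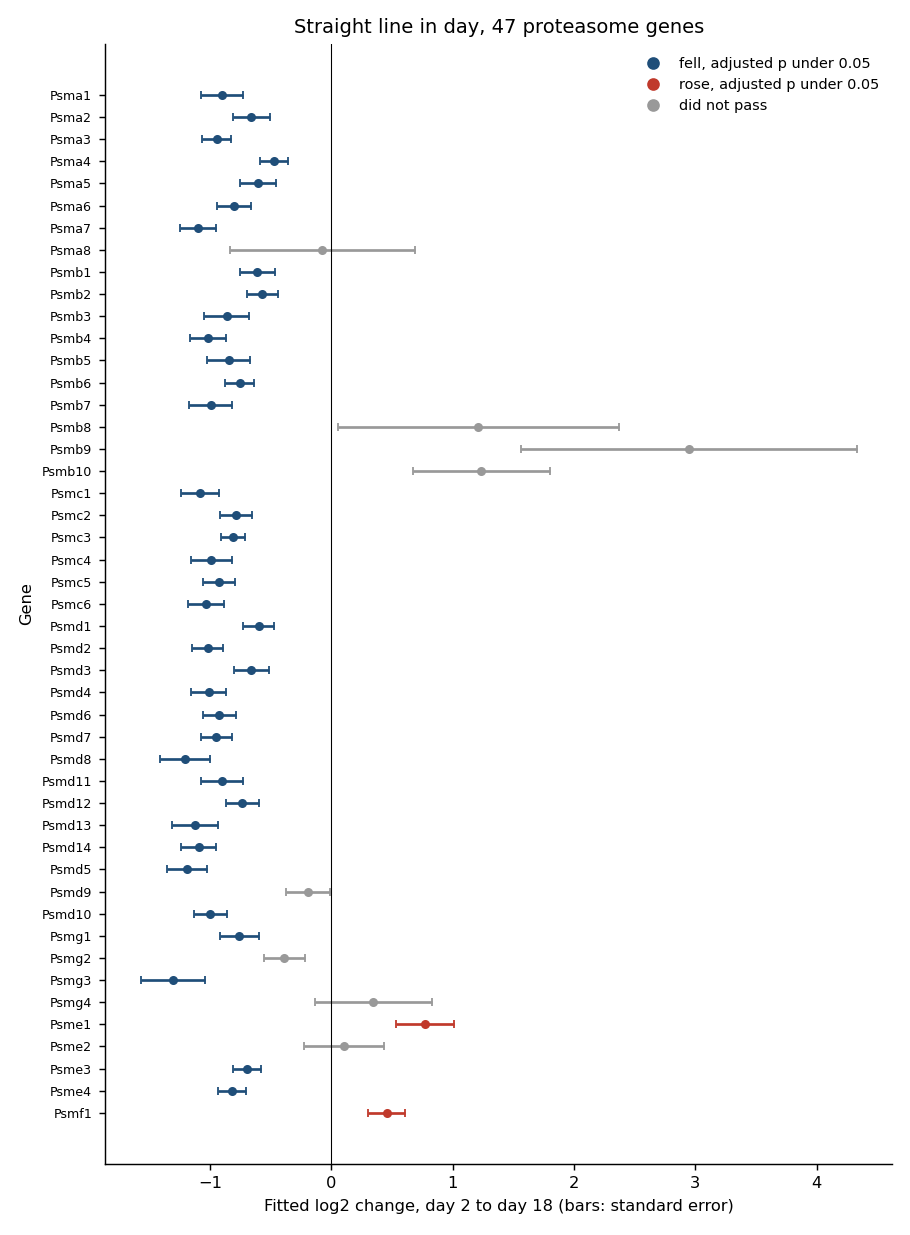
Fitted log2 change from day 2 to day 18 with its standard error (horizontal axis) for the 47 members tested, 1 per line, coloured by whether the straight line passed. Of the 47 points, 37 lie below 0 and passed, 2 lie above 0 and passed (Psme1 and Psmf1), and the immune genes have the widest bars among those above 0.

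Genes that act with the proteasome, on a list of 30 ubiquitin and proteasome factors of which 29 were tested, fell in 18 cases, rose in 5 and did not pass in 6, beside 26.1% falls and 28.3% rises over all genes. The largest fall was that of Usp14, a deubiquitinase bound to the 19S particle, from 115 to 42.8 TPM (change -1.52, SE 0.14, edgeR adjusted p = 3.83e-05). Pomp, the chaperone that matures the core, fell from early days at 354 to 359 TPM to late days at 272 to 295 TPM (change -0.48, SE 0.10, edgeR adjusted p = 0.00269). Nfe2l1 stood at 125, 132, 146, 133, 177, 207, 215, 207 and 224 TPM on days 2 to 18 (change 0.77, SE 0.11, edgeR adjusted p = 0.000223), and so rose while the constitutive subunit genes fell. Ngly1 and Ddi2, whose products are among those needed to activate the Nfe2l1 protein, rose too, Ngly1 with the largest rise of the list (0.77, SE 0.16, edgeR adjusted p = 0.00196) and Ddi2 with 0.36 (SE 0.11, edgeR adjusted p = 0.0211). Vcp, on the same list, fell (change -0.33, SE 0.10, edgeR adjusted p = 0.0201). Nfe2l2, the oxidative stress factor that binds the antioxidant response element, had a change of 0.01 (SE 0.16, edgeR adjusted p = 0.976).

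Of 11 antigen presentation genes, 5 rose and 1 fell, beside 28.3% and 26.1% over all genes, and the spline passed in 9, beside 57.5%. H2-K1, a class I heavy chain gene, had the largest change (2.48, SE 0.83, edgeR adjusted p = 0.0274), and B2m, the light chain of class I molecules, had 874 TPM on day 2, 3940 TPM on day 12 and 3164 TPM at the end (change 1.76, SE 0.49, edgeR adjusted p = 0.0110). Canx, a chaperone of the endoplasmic reticulum, fell (change -0.97, SE 0.14, edgeR adjusted p = 0.000249). Tap1, next to Psmb9, had 9.38, 21.8 and 8.55 TPM on days 2, 8 and 18, with a spline that passed (edgeR adjusted p = 0.000106) and a slope that did not (change -0.52, SE 0.49, edgeR adjusted p = 0.391). Nlrc5, an activator of class I genes, had 0.313, 2.50 and 0.669 TPM on those days (spline, edgeR adjusted p = 0.000292). Without day 2 only 1 of these genes rose and without day 4 only 2. All 12 interferon response genes passed the spline (edgeR quasi-likelihood test), beside 57.5% of all genes. By the line 0 passed with edgeR, 0 at an unadjusted p under 0.05, and 0 with DESeq2, where 1 had such an unadjusted p. Their summed level was 62.3, 260, 1169, 1685, 654, 489, 366, 274 and 317 TPM on days 2 to 18. Irf1, a transcription factor of the interferon response, stood at 3.35, 9.12 and 8.56 TPM on days 2, 8 and 18 (spline, edgeR adjusted p = 0.0131). The interferon list and Psmb8 had their highest level on the same day, and on day 18 the list had 317 of its 1685 TPM. Of the sum on day 8, Bst2, Oasl2, Isg15 and Ifit1 had 395, 322, 306 and 216 TPM. Members of the list differed: on day 18 Isg15 had 26.7 TPM, but Irf1 had 8.56 TPM against a maximum of 10.2 TPM and Gbp2 28.15 against 49.6 TPM. Psmb8, Psmb9 and Psmb10 had 0.502, 0.635 and 0.834 of their highest levels on day 18.

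**Figure D5:**
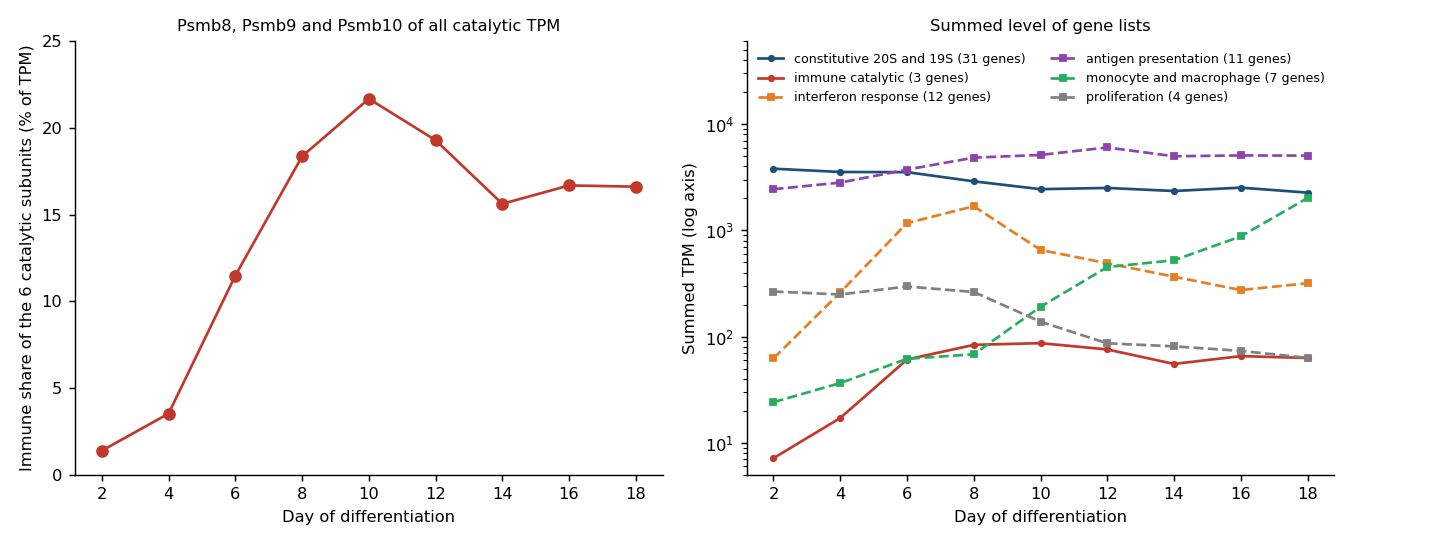
Left, the share of Psmb8, Psmb9 and Psmb10 in the summed TPM of the 6 catalytic genes (percent, linear axis from 0) against day. Right, summed TPM (log axis) of gene lists against day: the interferon response list is highest on day 8 (1685 TPM), the macrophage list on day 18 (2014 TPM), and the proliferation and constitutive proteasome lists are lower late than early.

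Markers of other cells and states moved along the same days. All 4 proliferation genes fell, and their summed level was 249 to 296 TPM on days 2 to 6, 263 and 138 TPM on days 8 and 10 and 63.0 to 80.9 TPM on days 14 to 18. On day 8 the sum of this list was within its early range, but its members differed. Ccnb1 (64.2 TPM, early days 67.8 to 82.2) and Cdk1 (66.85 TPM, early days 70.9 to 80.5) were below their early ranges. Mki67 (55.0 TPM) was within its range of 41.4 to 57.4 TPM, and Top2a (76.65 TPM) was just above its early maximum of 76.0 TPM. The constitutive proteasome genes had 2891 TPM on day 8, against 3527 to 3801 TPM on the early days. Of 7 monocyte and macrophage markers, 6 rose, from a summed 24.1 to 61.7 TPM on the early days to 522 to 2014 TPM on the late days, and none was at 0 throughout. On day 8, when Psmb8 and Psmb10 were highest, this list stood at 68.1 TPM, and on day 18 it stood at 2014 TPM. Of these sums, Lyz2 alone had 62.2 and 1856 TPM. The 3 immune proteasome genes together stood at 83.5 and 62.9 TPM on these days. All 5 adipocyte markers rose, from 3.21 to 7.44 TPM on the early days to 188 to 407 TPM on the late days. Of 4 osteoclast markers, 3 were found, 2 rose (37.2 to 85.6 TPM early, 204 to 215 TPM late) and Calcr was at 0. Ctsk alone had 36.5 to 83.7 TPM early and 192 to 200 TPM late. Of 4 endothelial markers, 3 were tested, 2 rose and 1 fell, with sums of 3.24 to 3.95 TPM early and 8.84 to 12.0 TPM late. Lymphocyte markers summed to at most 0.467 TPM, with Cd3e at 0. The part of these cells and states in the proteasome results was not tested.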

How the data were processed

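RNA sequencing profiles of cultured mouse calvarial cells, 27 in all, were used. The authors amplified complementary DNA, aligned reads to the NCBIM37 transcriptome with Bowtie 0.12.9 and quantified genes with RSEM (version 1.2.8 in the submitters' processing notes). The authors deposited expected counts, which RSEM estimates per gene and which are not normalized. They also deposited TPM and FPKM, abundances that the authors obtained from RSEM and that divide by gene length. Gene symbols came from the GENCODE annotation of NCBIM37 (37205 of 37991 identifiers), and the 50 identifiers of the 48 members were summed where Psmb9 and Psmd14 had 2.

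TPM of each profile were divided by the 75th percentile of its values above 0 and multiplied by the mean percentile of 24.0 TPM, with factors of 0.933 to 1.11. Expected counts were summed over the 3 profiles of a day and rounded. Chi-square tests of lane counts within days, over genes with whole-number counts, gave a statistic per degree of freedom of 0.999 to 1.02 (p from 0.0520 to 0.537), so the profiles were counted as 1 sample. P-values therefore rest on scatter of 9 libraries around a line. The quasi-likelihood test of edgeR 4.0.16 in R 4.3.3 was run on day with upper-quartile factors after filterByExpr (minimum count 10), with Benjamini-Hochberg adjusted p under 0.05, and the change is 16 times the slope. A natural spline with 3 degrees of freedom was a separate test. Ratios used a pseudocount of 0.5 counts and exact permutation tests (Python 3.11.15, scipy 1.17.1). Estimated counts were whole in all profiles for 33 members and fractional in 5 or more profiles for 10.

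The members, roles, gene lists and tests were chosen with earlier results of these data known. Named genes were the catalytic, tissue-restricted, activator and chaperone genes, the highest and lowest gene of each role, the largest rises and falls, and set genes of the related lists. Other genes were named outside that rule after their values were seen. They were Psma3, Psma4, Psma5, Psmd14, Psmc1, Psmc2, Psmd4, Psmd9, Psmd10, Psmd12, Psmd13, Ddi2, Vcp, Bst2, Oasl2, Isg15, Ifit1, Gbp2 and single cell markers. Single values of some listed genes are not reported here. Alternatives were TMM factors, total counts, DESeq2 1.42.0, every gene with at least 1 count, the 27 profiles as samples without and with a replicate block, each replicate and each day left out, early against late days, TPM and FPKM as deposited, and, chosen after seeing the data, the identifier with the most counts. Counting error is the only error that depth alone covers.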

Additional observations from a re-analysis of the deposited data

How the results depend on the processing

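Of 1300 recomputed values, 1223 kept their direction and their side of the threshold or stayed within 1.5 times a count, and 77 did not. All 620 recomputed changes of the 31 constitutive genes kept both. The highest constitutive change was -0.47 with upper-quartile factors, -0.51 with TMM, -0.60 with total counts and -0.50 with DESeq2, while the median of all genes was 0.05, 0.01, -0.07 and 0.04. With total counts, every gene with at least 1 count, the 27 profiles without and with the replicate block and DESeq2, 0, 1, 4, 4 and 4 members rose, against 2, and leaving out a day or replicate gave 0 to 3. With TMM, total counts, the 27 profiles without and with the block and DESeq2, 2 antigen presentation genes fell, against 1. With the 27 profiles, without or with the block, 1 interferon gene rose and 1 fell, against 0. Leaving out a day or replicate gave 1 to 5 rises and 1 to 2 falls for antigen presentation and 0 to 2 falls for interferon genes. Psmb9 passed with the 27 profiles (change 2.65, and 2.67 with the block) and DESeq2 (3.11), as did Psmb10 (1.19, 1.19 and 1.23). The 27 profiles are lanes of 1 library per day, so fits that count them as samples take technical scatter for replication. Left-out ranges were 1.55 to 4.02 for Psmb9, 0.52 to 1.65 for Psmb10, -0.00834 to 2.00 for Psmb8, -0.67 to 0.98 for Psma8, -0.00639 to 0.80 for Psmg4 and -0.31 to 0.27 for Psme2, which was also -0.0354 with total counts and -0.0356 for early against late days. Psmb10 passed without day 8 (1.40). Pearson r ranged from 0.416 to 0.733 for Psmb8 to Psmb5, 0.710 to 0.825 for Psmb9 to Psmb6 (0.744 without days 2 and 18) and 0.679 to 0.833 for Psmb10 to Psmb7 (0.711), and rho from 0.571 to 0.833 and 0.595 to 0.881 for the latter 2. Rank correlations of Psmb9 to Psmb6 passed without replicate 1 and without days 10, 12 or 14, and those of Psmb10 to Psmb7 without replicate 1 and without days 12, 14 or 16. Counting the untested Psmb11, 1 of 48 members was higher on all late days with FPKM as deposited, against 3. The summed constitutive ratio of day 18 to day 2 was 0.540 with TPM and 0.523 with FPKM as deposited, against 0.595. Same-numbered profiles had a mean correlation of deviations of -0.00083, so the numbers did not pair them. The causes were not tested. With 1 library per day, a library that stands apart and a change in the cells cannot be told apart.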
